A study of Mus musculus with 12 samples.

Results

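The transcripts described here lay on the same side of medium alone in every treated library, whichever of 3 dicarboxylic acids had been given. The cells were wild-type mouse bone marrow-derived macrophages. Such cells (BMDMs) are obtained by culturing bone marrow until its precursors have become macrophages. Poly(A) RNA was sequenced from 12 libraries in 4 groups of 3. The control group, M, received medium alone, and each of the others received a single acid, itaconic (IA), malonic (MA) or methylsuccinic (MetSA), added from a 50 mM stock in RPMI medium to 5 mM and left for 16 h. The genotype was wild type in every library. The labels do not say whether M received an equal volume of added medium or whether the acids were neutralised. An effect of the addition or of its acidity therefore cannot be told apart from another effect shared by the acids. The samples are labelled as biological replicates, and whether these were separate animals or cultures is not given. The p-values below therefore measure the spread between these samples.

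Members were found by an average of the 3 compounds with equal weights, set against M, and by the positions of the single libraries. All 9 treated libraries lay on the same side of all 3 M libraries for 1556 genes, of 14113 genes with enough counts to be tested and 32285 genes in the table. Of these, 752 genes (5.33% of those tested) lay above M and 804 genes (5.7%) lay below. The averaged change was tested with edgeR's quasi-likelihood test, and a gene was called when its Benjamini-Hochberg adjusted p over the 14113 genes was under 0.05. The call was passed by 709 of the genes above M and 764 of the genes below M, and these 1473 genes are called common genes from here on. A common gene need not be called after each acid by itself, and some of those named below were not. The other 83 genes without overlap, 43 above and 40 below, did not pass. The positions and the test read the same libraries, so the absence of overlap adds no independent support to a call.

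Dicarboxylic acids carry 2 carboxyl groups, and several are intermediates or inhibitors of the tricarboxylic acid cycle. Activated macrophages make itaconic acid with the enzyme encoded by Acod1, and itaconic and malonic acids are both known inhibitors of succinate dehydrogenase, the enzyme that oxidises succinate in the mitochondrial inner membrane. Itaconic acid has a carbon-carbon double bond that can react with thiols, methylsuccinic acid is the saturated form of the same branched chain, and malonic acid is shorter and unbranched. BMDMs proliferate in response to the growth factor Csf1, can fuse into multinucleated cells and are rich in lysosomes, and gene groups for each of these properties are described below.

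The 12 libraries held between 46892488 and 54252486 counts each and detected between 16662 and 17246 genes. The composition factors of the trimmed mean of M-values (TMM) scaling ran from 1.05 to 1.07 in M, 0.927 to 0.935 in IA, 1.02 to 1.05 in MA and 0.970 to 0.985 in MetSA, so the scaling differs between groups and moves the balance of calls. MetSA replicate 3 stood apart from the other libraries on the third principal component of log2 CPM (-32.74, 6.8% of the variance) and had 1.28% of its counts on mitochondrially encoded genes, against 0.759% and 0.833% in the other MetSA libraries. Without it, 777 genes were common and higher and 897 common and lower. Without MetSA replicate 1 the numbers were 775 and 800. Leaving out any library or group loosens the rule of no overlap, here and in all such counts below. All 17 macrophage markers listed were detected and tested. Adgre1 (F4/80) stood at a mean of 2628 CPM (counts scaled by library size and TMM factor) in M, Csf1r at 2725 and Cd68 at 1574, so its defining markers were abundant. In bulk RNA, fewer cells of a kind and less RNA per cell cannot be told apart.

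The averaged contrast called 4010 genes (28.4% of those tested), 2104 higher (14.9%) and 1906 lower (13.5%). Common genes made up 36.73% of these calls, 5.02% of all genes tested for those higher and 5.41% for those lower. The remaining 2537 called genes had at least 1 treated library within or beyond the range of M. In 828 called genes a compound's own mean change went against the average, most often MA, whose change was below 0 in 562 of the 2104 genes called higher. An averaged call is thus not a response to every acid, and the counts of common genes are given below for that reason. With TMM scaling 52.47% of the calls were higher. With upper-quartile factors the share was 38.31%, and with library totals alone 24.84%, where 365 genes were common and higher and 1470 common and lower. The median change over all genes tested moved from -0.02 to -0.13 on the log2 scale with totals alone. Of the common genes, 365 higher and 763 lower were common under all 3 scalings. Both other scalings moved the median change downward, so this check can remove higher genes but hardly lower ones.

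Common genes changed moderately. The median averaged log2 fold change was 0.46 over the 709 higher and -0.47 over the 764 lower, against -0.02 over all genes tested, and 110 rose and 80 fell at least 2-fold. The higher genes were also more abundant, with a median of 57.0 CPM over the 12 libraries against 18.9 CPM for the lower genes and 17.1 CPM for all genes tested. Among the higher genes the compounds' own median changes were 0.51 for IA, 0.37 for MA and 0.39 for MetSA, and the largest change was that of IA in 396 genes, of MA in 225 and of MetSA in 88. Among the lower genes the medians were -0.58 for IA, -0.37 for MA and -0.40 for MetSA, and the largest fall was that of IA in 537, of MA in 169 and of MetSA in 58. The 3 comparisons share the M libraries, so these values stand side by side and their likeness is no result of its own.

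The largest rises among common genes with a mean of at least 10 CPM in M or in the treated libraries were led by secreted and membrane proteins. Thbs1 encodes thrombospondin-1, a matrix glycoprotein known to activate latent TGF-beta. Its level was 161, 226 and 182 CPM in M, 1337, 1631 and 1308 CPM in IA, 949.5, 1254 and 775 CPM in MA and 976, 1211 and 919.9 CPM in MetSA. Every treated library was at least at 775 CPM and no M library was above 226 CPM. The averaged change was 5.98-fold (log2 fold change 2.58, SE 0.19, adjusted p = 8.76e-06), and the compounds' own changes were 2.91 after IA, 2.39 after MA and 2.45 after MetSA. A difference among the 3 compounds was not called for Thbs1 (adjusted p = 0.117). Ctla2a, an inhibitor of cysteine proteases first found in activated T cells, stood at 10.6, 12.9 and 13.8 CPM in M, 52.5, 56.3 and 55 CPM in IA, 124, 116 and 109 CPM in MA and 49.8, 49.8 and 48.3 CPM in MetSA. All 9 treated libraries were at 48.3 CPM or more, with MA above the other acids (averaged log2 fold change 2.45, SE 0.08, adjusted p = 8.28e-14). Of its transcript, 11.5% also occurs in other genes, so its reads are less certain. Acod1, which encodes the enzyme that makes itaconate, was low in medium, at 1.49, 2.09 and 3.19 CPM. It stood at 25.6, 25.9 and 26.5 CPM in IA, 4.81, 6.27 and 6.1 CPM in MA and 15, 10.8 and 8.21 CPM in MetSA. The groups did not overlap, and Acod1 lay in the order IA, MetSA, MA, M (averaged log2 fold change 2.39, SE 0.24, adjusted p = 1.26e-05). IA exceeded MA by 2.18 (95% interval 1.66 to 2.71) on the log2 scale, and MetSA exceeded MA by 0.99 (95% interval 0.46 to 1.51).

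**Figure D1:**
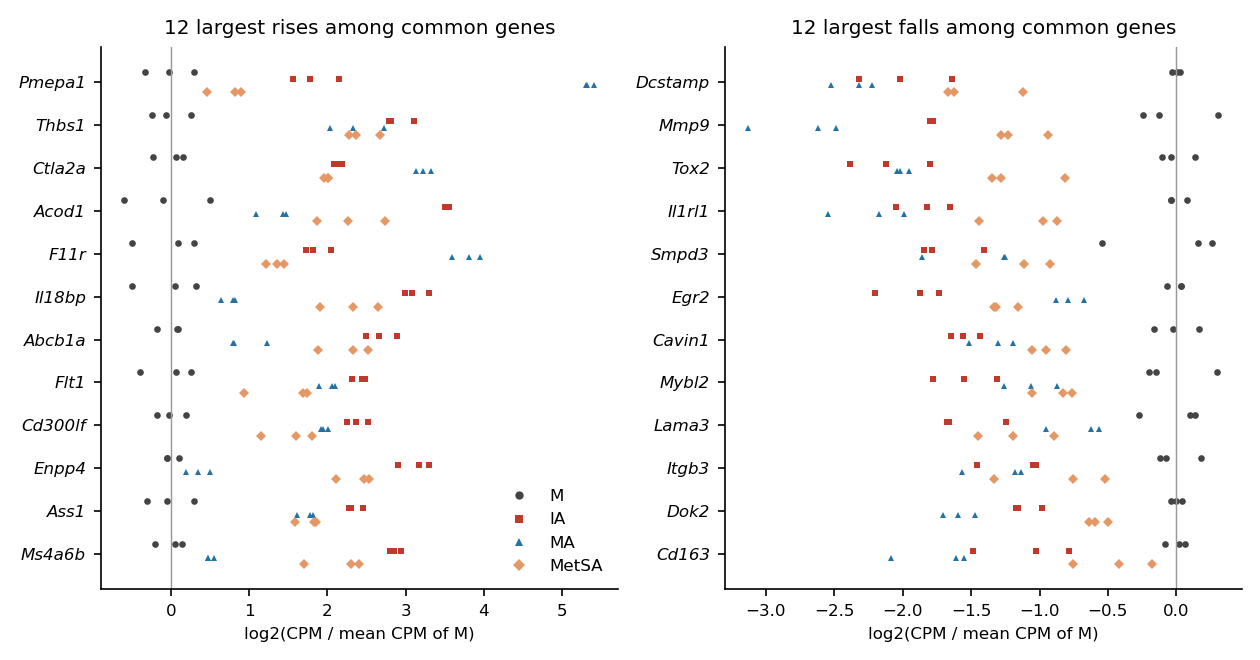
CPM of each library divided by the mean of M, on a log2 axis, for the 12 largest rises (left) and the 12 largest falls (right) among common genes with at least 10 CPM. Circles are M, squares IA, triangles MA and diamonds MetSA, 3 libraries each. No treated point overlaps the M points of its row, by the rule that selected these genes. The compounds' order differs from gene to gene, with MA farthest from M for Pmepa1 and nearest to M for Acod1.

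Flt1, another large rise, is a receptor for vascular endothelial growth factor and rose by 1.97 on the log2 scale (SE 0.17), from 3.26 ± 0.722 CPM in M (SD, n = 3) to 17.3 ± 0.99 in IA, 13.2 ± 0.936 in MA and 9.2 ± 2.57 in MetSA. Cd300lf, an inhibitory receptor of myeloid cells, rose by 1.96 (SE 0.13), from 12.1 ± 1.58 CPM to 63.1 ± 5.76 in IA, 47 ± 1.49 in MA and 35.3 ± 7.9 in MetSA. Ass1, which makes argininosuccinate in the resynthesis of arginine, stood at 7.71, 9.22 and 11.7 CPM in M, 46.1, 46.9 and 52.2 CPM in IA, 29.1, 32.6 and 33.5 CPM in MA and 34.4, 34 and 28.6 CPM in MetSA. Its lowest treated library had 28.6 CPM and its highest M library 11.7 CPM (averaged log2 fold change 1.94, SE 0.11, adjusted p = 2.13e-09), although 27.7% of its transcript also occurs in other genes, chiefly Gm5424. Il18bp, a secreted protein that binds interleukin-18, rose by 2.06 on average, but by 3.13 after IA, 0.75 after MA and 2.32 after MetSA. The drug efflux pump Abcb1a rose by 1.97 (2.69 after IA, 0.95 after MA and 2.27 after MetSA) and the membrane protein Ms4a6b by 1.84 (2.86 after IA, 0.50 after MA and 2.16 after MetSA). For these 3 genes the change after MA was the smallest, and a difference among the compounds was called for each (adjusted p = 5.28e-05, 6.37e-06 and 5.06e-06). In GRCm38 coordinates Thbs1 lies on chromosome 2 from 118111876 to 118127133, Acod1 on chromosome 14 from 103046977 to 103056573, Ctla2a on chromosome 13 from 60934155 to 60936625 and Flt1 on chromosome 5 from 147561604 to 147726011.

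The largest falls held genes of cell fusion, matrix breakdown and growth signalling. Dcstamp encodes a membrane protein needed for the fusion of macrophages and osteoclast precursors. It stood at 52, 53 and 51 CPM in M, 10.4, 16.7 and 12.8 CPM in IA, 9.06, 10.4 and 11.1 CPM in MA and 16.8, 16.4 and 23.9 CPM in MetSA. The lowest M library had 51 CPM and the highest treated library 23.9 CPM, so the averaged level fell 3.79-fold (log2 fold change -1.92, SE 0.12, adjusted p = 1.89e-07). The gelatinase Mmp9 stood at 35.6, 24.3 and 26.4 CPM in M, 8.24, 8.37 and 8.38 CPM in IA, 4.68, 3.29 and 5.12 CPM in MA and 11.8, 12.3 and 15 CPM in MetSA. MA was lowest and MetSA nearest to M without overlap, and the averaged change was -1.88 (SE 0.12, adjusted p = 6.88e-09). Il1rl1, which encodes the interleukin-33 receptor ST2, stood at 11.2, 12.2 and 11.2 CPM in M, 2.79, 3.67 and 3.27 CPM in IA, 1.98, 2.56 and 2.9 CPM in MA and 4.24, 5.89 and 6.3 CPM in MetSA. It fell 3.27-fold on average (adjusted p = 6.34e-09), again with MA lowest. Egr2, a zinc finger transcription factor induced by growth factor signalling, stood at 28.2, 28.1 and 26.1 CPM in M, 5.96, 7.5 and 8.27 CPM in IA, 15.9, 14.9 and 17.2 CPM in MA and 11, 10.9 and 12.3 CPM in MetSA. Here IA was lowest and MA nearest to M (log2 fold change -1.32, SE 0.08, adjusted p = 6.54e-10).

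The other large falls follow, where all 9 treated libraries lay below M by the rule that selected these genes. Smpd3, a neutral sphingomyelinase that releases ceramide, fell by 1.41 on the log2 scale (SE 0.17), and the HMG-box gene Tox2 fell by 1.74 (SE 0.12). Cavin1, a coat protein of caveolae, stood at 19.4, 15.5 and 17 CPM in M, 5.51, 6.4 and 5.86 CPM in IA, 7.03, 7.56 and 6.04 CPM in MA and 8.93, 8.32 and 9.91 CPM in MetSA, with no M library below 15.5 CPM and no treated library above 9.91 CPM (averaged -1.27, adjusted p = 5.46e-09). Dok2, an adaptor that dampens receptor kinase signalling, stood at 128, 121 and 124 CPM in M, 55.9, 62.8 and 55.3 CPM in IA, 38.1, 41.1 and 44.8 CPM in MA and 79.8, 82.3 and 87.7 CPM in MetSA. Its replicates were tight, and the order MA, IA, MetSA held without overlap between groups (log2 fold change -1.09, SE 0.05, adjusted p = 5.58e-11, and adjusted p = 3.54e-09 for a difference among the compounds). Cd163, the scavenger receptor for haemoglobin, stood at 34.3, 36.8 and 37.9 CPM in M, 13, 21.1 and 17.9 CPM in IA, 8.57, 11.9 and 12.4 CPM in MA and 21.6, 27.2 and 32.2 CPM in MetSA. Its MetSA replicate 3 lay closest to M, and MetSA by itself was not called (log2 fold change -0.43). Lama3, a laminin chain, fell by 1.12 and Mybl2, a transcription factor of dividing cells, by 1.15. In GRCm38 coordinates Dcstamp lies on chromosome 15 from 39745930 to 39760938, Mmp9 on chromosome 2 from 164940780 to 164955850, Egr2 on chromosome 10 from 67535475 to 67542188 and Cavin1 on chromosome 11 from 100956733 to 100970887.

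Sharing a direction did not mean sharing a size. The 3 compounds were compared with one another in the same fit, in contrasts that M does not enter. A difference among them was called for 685 of the 1473 common genes (46.5%), 391 of those higher (55.15%) and 294 of those lower (38.48%), against 4901 of all genes tested (34.7%). Among common genes above 10 CPM with at least a 2-fold change, 50 of 54 higher genes and 11 of 14 lower genes differed among the compounds, predicted genes left out. Over all genes tested the pair IA and MA differed in 4887 genes (34.6%), MetSA and MA in 3720 (26.4%) and IA and MetSA in 864 (6.12%).

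Among common genes with at least 10 CPM and a 2-fold change, those with the smallest gap between acids were Hk2, Itgal, Tgm2, Pla2g7 and Sirpb1c for rises and Smpd3, Cavin1, Itgb3, Atp6v0d2 and Mmp12 for falls. Mmp12, the macrophage elastase, stood at 186, 165 and 198 CPM in M, 82.6, 88.4 and 95.3 CPM in IA, 92.9, 73.9 and 114 CPM in MA and 81.8, 63 and 114 CPM in MetSA. Treated values ran from 63 to 114 CPM in overlapping ranges for the 3 acids, all below the lowest M value of 165 CPM (log2 fold change -1.04, SE 0.17, adjusted p = 0.0016). The differences between compounds were -0.08 (95% interval -0.57 to 0.42) for IA minus MA, 0.04 (95% interval -0.45 to 0.54) for IA minus MetSA and -0.12 (95% interval -0.62 to 0.38) for MetSA minus MA, so these intervals reach differences as large as -0.62 on the log2 scale. Itgal, the alpha chain of the leukocyte integrin LFA-1, stood at 34.6, 45.3 and 45 CPM in M, 79.8, 97.5 and 102 CPM in IA, 72.7, 92.4 and 89.6 CPM in MA and 76.7, 103 and 102 CPM in MetSA. Replicate 1 was lowest in each group, and the averaged change was 1.12 (SE 0.14, adjusted p = 0.000111), with differences of 0.14 (95% interval -0.21 to 0.48) between IA and MA and -0.01 (95% interval -0.35 to 0.33) between IA and MetSA. Il4ra, the receptor chain for interleukin-4 and interleukin-13, rose by a smaller amount but with narrower intervals. Its level was 86.1, 84 and 85.8 CPM in M, 129, 133 and 119 CPM in IA, 134, 137 and 126 CPM in MA and 125, 137 and 138 CPM in MetSA, and the compounds' own changes were 0.57 after IA, 0.64 after MA and 0.65 after MetSA. The difference was -0.08 (95% interval -0.20 to 0.05) between IA and MetSA and -0.06 (95% interval -0.19 to 0.07) between IA and MA. The cationic amino acid transporter Slc7a1 fell by 0.58 (SE 0.08), with own changes of -0.55 after IA, -0.60 after MA and -0.59 after MetSA. Tgm2, a transglutaminase that crosslinks proteins, and Pla2g7, a secreted phospholipase that degrades platelet-activating factor, rose by 1.32 and 1.34, and in both a difference among the compounds was called (adjusted p = 1.2e-05 and 0.0123). In Tgm2, IA (223, 237 and 236 CPM) and MA (224, 245 and 213 CPM) lay together above MetSA (166, 180.1 and 158 CPM), and M was at 80.7, 84.5 and 82.7 CPM.

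**Figure D2:**
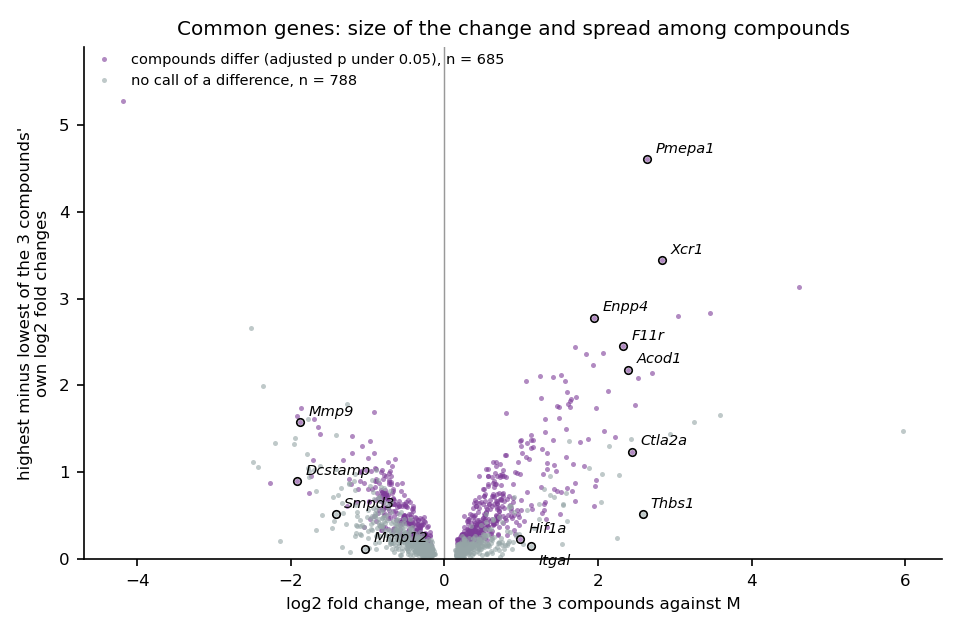
Averaged log2 fold change against M (x axis) and the gap between the highest and lowest of the compounds' own log2 fold changes (y axis) for the 1473 common genes. Purple points are the 685 genes with a called difference among the compounds and grey points the 788 others. Thbs1, Itgal and Mmp12 lie near the x axis, Pmepa1 and Enpp4 far above it, and the most extreme points without a name are genes below 10 CPM.

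The least even common genes passed the position rule although the size of the change differed widely between acids. Pmepa1, a membrane protein induced by TGF-beta that limits its signalling, stood at 0.524, 0.815 and 0.65 CPM in M, 1.96, 2.93 and 2.28 CPM in IA, 28.2, 26.4 and 26.3 CPM in MA and 1.24, 0.909 and 1.17 CPM in MetSA. No MA library was below 26.3 CPM and no IA or MetSA library above 2.93 CPM, yet the lowest MetSA library, at 0.909 CPM, still lay above the highest M library, at 0.815 CPM. MetSA minus MA was -4.61 (95% interval -4.96 to -4.25). F11r, a junctional adhesion molecule, showed the same order, with 2.58, 3.89 and 4.47 CPM in M, 12, 12.8 and 15.1 CPM in IA, 44, 51 and 56.4 CPM in MA and 8.48, 9.88 and 9.33 CPM in MetSA. Enpp4, a member of the ectonucleotide phosphodiesterase family, was instead highest in IA and lowest in MA, at 2.94, 3.26 and 2.94 CPM in M, 22.9, 27.3 and 29.9 CPM in IA, 3.47, 3.88 and 4.31 CPM in MA and 17.6, 16.8 and 13.1 CPM in MetSA. MA by itself did not pass the test for Enpp4 (log2 fold change 0.35), and IA minus MA was 2.78 (95% interval 2.50 to 3.06). Xcr1, a chemokine receptor known from cross-presenting dendritic cells, stood at 0.161, 0.241 and 0.268 CPM in M, 4.56, 5.08 and 4.94 CPM in IA, 0.317, 0.551 and 0.462 CPM in MA and 2.33, 1.74 and 1.83 CPM in MetSA. M and MA were both low for Xcr1, with 0.268 CPM the highest M value and 0.317 CPM the lowest MA value. The genes nearest to the limit of the rule were Bccip and Vars just inside and Pi4k2b and Rad21 just outside. The highest M value of Bccip and its lowest treated value were both 32.4 CPM. The lowest M value of Vars and its highest treated value were both 52.5 CPM. Pi4k2b had an MetSA library at 17.3 CPM that M replicate 2 matched, and Rad21 an MA library at 159 CPM that M replicate 3 matched.

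Cell cycle genes held the largest shares of common and lower genes among the lists described here. Replication genes build and fire origins in S phase, and mitotic genes drive spindle assembly and division. Of 34 replication and S phase genes, 20 were common and lower and none was common and higher, against 5.41% and 5.02% of all genes tested. Of 34 mitosis and G2/M genes, 21 were common and lower and none higher. The same 20 and 21 genes were common under all 3 scalings. The averaged contrast called 28 replication genes lower and none higher, with a median of -0.49, and 32 mitosis genes lower and 1 higher, with a median of -0.70. The compounds' own medians were -0.60 for IA, -0.57 for MA and -0.40 for MetSA in replication and -1.18, -0.37 and -0.61 in mitosis. By itself IA called 32 mitosis genes lower, MA 13 and MetSA 29, and of all genes tested they called 17.3%, 10.1% and 8.53% lower. A difference among the compounds was called for 13 of the 34 replication genes and 31 of the 34 mitosis genes. When the 9 treated libraries were tested as 1 group, so that differences between acids counted as error, 13 mitosis genes were common and lower.

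Promoters of these genes are shown because those of replication and mitotic genes are known to carry different elements, and the 2 groups moved differently between acids. The sequences are the bases upstream of the RefSeq start in GRCm38.p6, 5′ to 3′ on the gene's strand. Capitals in Top2a, at chr11:99024190-99024439 on the minus strand, mark TTTGAA (the CHR element) and CCAAT (the NF-Y box) on either strand. Capitals in Mcm5, at chr8:75109259-75109508 on the plus strand, mark TTTGGCG (an E2F element) and CCAAT on either strand.
Top2a: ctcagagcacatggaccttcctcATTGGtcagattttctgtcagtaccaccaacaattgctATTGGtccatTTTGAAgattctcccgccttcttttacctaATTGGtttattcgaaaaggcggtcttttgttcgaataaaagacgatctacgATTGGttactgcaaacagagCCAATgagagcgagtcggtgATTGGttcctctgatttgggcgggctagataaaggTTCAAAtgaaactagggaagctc
Mcm5: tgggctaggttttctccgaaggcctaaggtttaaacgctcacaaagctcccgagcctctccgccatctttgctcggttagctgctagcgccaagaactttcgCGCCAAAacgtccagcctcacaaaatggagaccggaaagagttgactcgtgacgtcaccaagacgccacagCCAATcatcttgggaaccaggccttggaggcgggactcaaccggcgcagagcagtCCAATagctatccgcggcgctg
Top2a holds 2 CHR elements and 6 NF-Y boxes in this window, and Mcm5 holds 1 E2F element and 2 NF-Y boxes. Promoters were found for 17 of the 21 mitosis genes and 17 of the 20 replication genes that were common and lower, and for 10641 of the genes tested. TTTGAA stood in 6 of 17 mitosis promoters (35.3%), 2 of 17 replication promoters (11.8%) and 11% of all tested promoters. An E2F element (TTCCCGC or TTTGGCG) stood in none of the 17 mitosis promoters, 8 of 17 replication promoters (47.1%) and 8.82% of all. CCAAT stood in 13 of 17 (76.5%), 11 of 17 (64.7%) and 36.5%. Among the other 552 common and lower genes with a promoter the shares were 9.42% for TTTGAA, 11.1% for E2F and 41.7% for CCAAT. A match of letters describes these windows and shows no binding.

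The order of the acids differed between cell cycle genes. Top2a, the topoisomerase that untangles chromosomes at mitosis, stood at 126, 118 and 105 CPM in M, 58.3, 59.8 and 51.9 CPM in IA, 93.3, 82.9 and 88.1 CPM in MA and 77.9, 73.2 and 82.5 CPM in MetSA. No group overlapped M, IA was lowest and MA nearest to M (log2 fold change -0.67, SE 0.06, adjusted p = 7.99e-08, 1.59-fold lower on average, and adjusted p = 5.55e-06 for a difference among the compounds). Mcm5, a subunit of the replicative helicase, stood at 96.4, 78.9 and 76.5 CPM in M, 45.2, 50.6 and 38.8 CPM in IA, 44.8, 40.8 and 46.1 CPM in MA and 59.4, 52.4 and 54.5 CPM in MetSA. IA and MA overlapped and MetSA was nearest to M for Mcm5 (log2 fold change -0.81, SE 0.08, adjusted p = 5.13e-07). Uhrf1, which maintains DNA methylation after replication, fell from 63.2 ± 12.4 CPM in M to 27.7 ± 1.55 in IA, 32 ± 2.08 in MA and 38.1 ± 2.91 in MetSA. The thymidine kinase Tk1 fell by 0.79 (SE 0.08) and the cyclin Ccna2 by 0.90 (SE 0.08). Of Ccna2, 12.5% of the exon bases lie under Exosc9 on the opposite strand, and Exosc9 itself was at 22.7 CPM in M with a change of 0.08. Cyclin D1 did not belong to the shared response. Ccnd1 stood at 282, 265 and 228 CPM in M, 299, 319 and 313 in IA, 124, 112 and 123 in MA and 317, 279 and 224 in MetSA, so it was low after MA alone. The averaged change of Ccnd1, -0.26 (adjusted p = 0.0352), was 0.17 without the MA group and was no longer called (adjusted p = 0.2). The CDK inhibitor Cdkn1a was likewise above M after IA (545, 537 and 554 CPM) and MetSA (515, 464 and 429.8 CPM) and below it after MA (252, 271 and 283 CPM, with 306, 299 and 321 CPM in M).

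**Figure D3:**
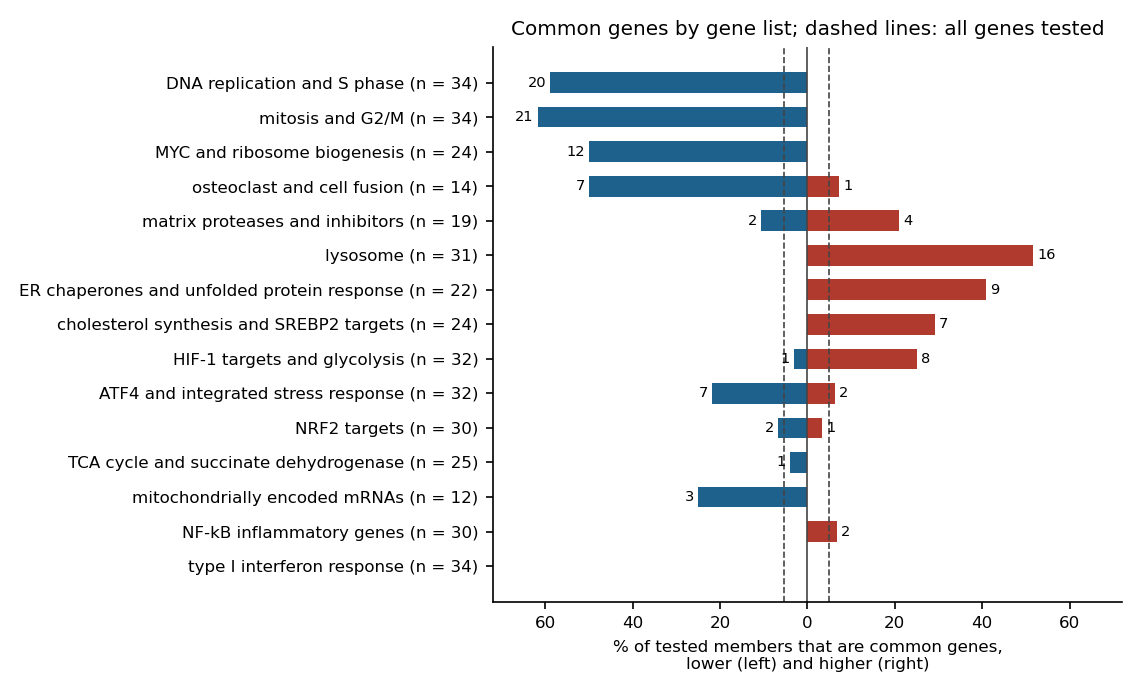
Share of the tested members of 15 gene lists that were common genes, lower to the left in blue and higher to the right in red, with the number of genes at each bar and the number tested in brackets. Dashed lines mark the shares over all genes tested, 5.41% lower and 5.02% higher. Cell cycle, MYC and osteoclast genes lie to the left, lysosome, ER chaperone and cholesterol genes to the right, and the interferon list has none in either direction.

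MYC and ribosome biogenesis genes were lower, and genes of amino acid supply went both ways. Of 24 MYC and ribosome biogenesis genes 12 were common and lower and none higher, and 17 were called lower (median -0.37). Among all genes tested 5.41% were common and lower, 5.02% common and higher, 13.5% called lower and 14.9% called higher. Myc itself stood at 32.9, 27.4 and 26.4 CPM in M, 11.9, 11.5 and 10.3 CPM in IA, 18.6, 18.1 and 17.1 CPM in MA and 15.2, 14.8 and 16.9 CPM in MetSA. The highest treated library had 18.6 CPM and the lowest M library 26.4 CPM (log2 fold change -0.98, SE 0.07, adjusted p = 1.2e-08). The nucleolar protein Nop56 fell by 0.49 (SE 0.06) and the spermidine synthase Srm by 0.80 (SE 0.10), whereas Ncl and Npm1 were not called (averaged -0.07 and -0.05). The integrated stress response, with its factor ATF4, is a programme that raises amino acid supply. Of its 32 genes, 10 were called lower and 8 higher, with a median of 0.08. Common and lower were 7, and common and higher were 2 (Sesn2 and Slc3a2), the latter near the share of all genes. The lower common members were the glutamine carrier Slc1a5 (-0.78), the serine synthesis enzyme Psat1 (-0.71), Slc7a1, Slc7a5 (-0.58), Shmt2 (-0.44), Aldh18a1 (-0.28) and the glycyl-tRNA synthetase Gars (-0.24). Slc1a5 stood at 45, 39.3 and 45 CPM in M, 20.1, 21.6 and 21 CPM in IA, 29.96, 28.2 and 32.8 CPM in MA and 23.4, 23 and 28 CPM in MetSA, with IA lowest and MA nearest to M. Sesn2, a stress-induced inhibitor of the growth kinase mTORC1, stood at 27.1, 30.6 and 30.9 CPM in M, 49, 42.1 and 43.5 CPM in IA, 35.3, 37.9 and 34.1 CPM in MA and 45.3, 44.9 and 38.7 CPM in MetSA (averaged log2 fold change 0.47, SE 0.07, adjusted p = 3.03e-05). Slc3a2 rose by 0.23, and was not common with upper-quartile or total scaling. Of 16 MAP kinase feedback genes, 3 were common and lower, the phosphatase Dusp4 (-0.74), the inhibitor Spred2 (-0.44) and the transcription factor Etv5 (-0.67), and none was higher.

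Lysosomal genes held the largest share of common and higher genes among the lists described here. Lysosomes break down proteins, lipids and glycans with acid hydrolases, and macrophages depend on them to clear what they engulf. Of 31 lysosome genes 16 were common and higher and none lower, against 5.02% and 5.41% of all genes tested. The averaged contrast called 21 higher and 1 lower, against 14.9% and 13.5%. The median was 0.33, with 0.40 for IA, 0.23 for MA and 0.26 for MetSA. Under all 3 scalings 14 of the 16 were common, and 2 other members were common and lower with upper-quartile factors and 3 with library totals. They included the proteases Ctsh, Ctsl, Ctss, Ctsz, Lgmn and Tpp1, the glycosidases Gaa, Gla, Glb1 and Neu1, the lipid carriers Npc2 and Psap, and the membrane proteins Lamp1 and Gpnmb. Cathepsin S (Ctss) stood at 1353, 1530 and 1626 CPM in M, 3357, 3003 and 3273 CPM in IA, 2566, 2459 and 2831 CPM in MA and 2813, 2589 and 2742 CPM in MetSA, so that the lowest treated library, at 2459 CPM, stood far above the highest M library, at 1626 CPM (log2 fold change 0.92, SE 0.06, adjusted p = 3.16e-09). Cathepsin H (Ctsh) rose by 0.83 (SE 0.06), and a difference among the acids was not called (adjusted p = 0.104). Npc2, which hands cholesterol out of the lysosome, stood at 944, 1075 and 1079 CPM in M, 2441, 2198 and 2432 CPM in IA, 1206, 1227 and 1249 CPM in MA and 2243, 2061 and 1767 CPM in MetSA. MA was the acid nearest to M for Npc2 (1.19 after IA, 0.25 after MA and 0.97 after MetSA). Glb1, the beta-galactosidase, rose evenly, with 0.51 after IA, 0.49 after MA and 0.46 after MetSA. Macrophage markers moved in the same direction on average. Of 17 tested, 11 were called higher and none lower and 4 were common (Ctss, Mpeg1, Mertk and Itgam), 2 with total scaling and 7 without M replicate 3. By itself IA called 13 markers higher, MA 6 higher and 1 lower, and MetSA 13 higher. The compounds' own medians were 0.36, 0.09 and 0.32. Their summed level was 35560 to 38740 CPM in M and 42980 to 48450 CPM in the treated libraries. The marker list and the lysosome list share Ctss, and the part of the markers in the lysosomal rise was not tested.

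Lysosomal promoters are known for the CLEAR element, whose core TCACGTG is read by the transcription factor TFEB, and the promoters of Gla and Lamp1 are shown because they hold several copies. Gla encodes alpha-galactosidase A, at chrX:134601126-134601255 on the minus strand, and Lamp1 a major lysosomal membrane protein, at chr8:13158911-13159160 on the plus strand. Capitals mark TCACGTG on either strand, and the bases of Gla nearest to its RefSeq start are left out because an annotated transcript covers them.
Gla: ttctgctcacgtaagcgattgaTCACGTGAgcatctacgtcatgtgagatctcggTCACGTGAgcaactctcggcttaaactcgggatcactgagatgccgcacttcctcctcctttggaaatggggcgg
Lamp1: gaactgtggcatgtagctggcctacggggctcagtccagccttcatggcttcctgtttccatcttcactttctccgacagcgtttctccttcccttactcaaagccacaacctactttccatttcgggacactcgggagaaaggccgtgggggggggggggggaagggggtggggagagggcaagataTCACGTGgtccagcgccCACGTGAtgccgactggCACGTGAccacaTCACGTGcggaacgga
The core stood in 4 of 13 promoters of the common lysosome genes (30.8%), against 4.93% of all tested promoters and 6.68% of the promoters of common and higher genes. Gla stood at 164, 162 and 164 CPM in M, 377, 341 and 336 CPM in IA, 236, 207 and 221 CPM in MA and 326, 257 and 260.1 CPM in MetSA, with no overlap between M and any acid (log2 fold change 0.78, SE 0.07, adjusted p = 9.72e-08). Lamp1 stood at 1242, 1265 and 1284 CPM in M, 1759, 1596 and 1661 CPM in IA, 1544, 1439 and 1494 CPM in MA and 1621, 1511 and 1656 CPM in MetSA, a change of 0.33 on the log2 scale (SE 0.05).

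Chaperones of the endoplasmic reticulum (ER) were also mostly higher. These proteins fold and quality-check secreted and membrane proteins, and the unfolded protein response raises them. Of 22 genes 9 were common and higher and none lower, against 5.02% and 5.41% of all genes tested. The averaged contrast called 15 higher and none lower, against 14.9% and 13.5%. The median was 0.22, with 0.28 for IA, 0.19 for MA and 0.27 for MetSA. Under all 3 scalings 8 of the 9 were common. Hspa5, the main ER chaperone BiP, stood at 843, 949 and 828 CPM in M, 1507, 1677 and 1616 CPM in IA, 1087, 995 and 1048 CPM in MA and 1443, 1452 and 1447 CPM in MetSA. The highest M library had 949 CPM and the lowest treated library, in MA, 995 CPM (log2 fold change 0.62, SE 0.05, adjusted p = 5.05e-08, adjusted p = 5.49e-07 for a difference among the compounds). Calreticulin (Calr) stood at 954, 1010 and 929 CPM in M, 1484, 1409 and 1486 CPM in IA, 1234, 1079 and 1216 CPM in MA and 1413, 1353 and 1427 CPM in MetSA. MA was again nearest to M (log2 fold change 0.47, SE 0.05, adjusted p = 9.13e-07). Hsp90b1, the ER member of the HSP90 family, rose by 0.40 (SE 0.05), with 0.47 after IA, 0.30 after MA and 0.43 after MetSA. The other common members were the disulfide isomerases Pdia3 (0.40) and Pdia6 (0.36), the co-chaperone Dnajb11 (0.37), Hyou1 (0.34), calnexin (Canx, 0.27) and the transcription factor Xbp1 (0.36).

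The promoters of Calr and Hsp90b1 are shown for the ER stress response element (ERSE), CCAAT then 9 bases then CCACG, both parts of which are in capitals where they stand at that distance on either strand. Calr lies at chr8:84846935-84847181 and Hsp90b1 at chr10:86705510-86705694, both on the minus strand, and bases covered by an annotated transcript are left out.
Calr: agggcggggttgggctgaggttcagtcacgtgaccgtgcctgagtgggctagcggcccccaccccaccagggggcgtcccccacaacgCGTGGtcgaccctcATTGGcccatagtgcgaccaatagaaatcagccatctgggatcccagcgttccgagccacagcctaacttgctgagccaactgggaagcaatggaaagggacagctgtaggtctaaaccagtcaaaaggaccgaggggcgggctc
Hsp90b1: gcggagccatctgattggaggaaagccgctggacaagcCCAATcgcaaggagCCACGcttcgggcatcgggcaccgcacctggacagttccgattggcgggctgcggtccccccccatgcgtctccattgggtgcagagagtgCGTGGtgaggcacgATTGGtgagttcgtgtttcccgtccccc
The element stood in 5 of 8 promoters of the common ER genes (62.5%), those of Hspa5, Calr, Hsp90b1, Canx and Pdia6, and in 16 of all 10641 promoters (0.15%). Among the 569 promoters of common and higher genes it stood in these same 5 alone, and among the 586 of common and lower genes in none. For none of the elements shown were list members that were not common counted apart. A link of an element with being common, within a list, was therefore not tested.

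Cholesterol synthesis genes were called higher as a group but were shared by the acids only in part. Of 24 genes 19 were called higher, against 14.9% of all genes tested, and none lower (median 0.39). Common and higher were 7, against 5.02% of all genes tested. The compounds' own medians were 0.65 for IA, 0.09 for MA and 0.39 for MetSA, and 21, 6 and 17 members were called higher after each acid by itself (of all genes tested, 17.9% after IA, 10.1% after MA and 12.6% after MetSA). Without the MA group 18 were common. Hmgcs1, the enzyme that makes HMG-CoA for mevalonate, stood at 50.5, 58.1 and 54.8 CPM in M, 107, 111 and 131 CPM in IA, 72.1, 68.6 and 74.5 CPM in MA and 91.3, 82.6 and 90.9 CPM in MetSA. The order IA, MetSA, MA, M held without overlap (log2 fold change 0.73, SE 0.07, adjusted p = 8.82e-08). Squalene synthase (Fdft1) rose by 0.75 (SE 0.09), with 1.17 after IA, 0.41 after MA and 0.66 after MetSA, and Sc5d, a late desaturase, rose more evenly, with 0.58 after IA, 0.45 after MA and 0.51 after MetSA. Mvd, Hsd17b7 and Stard4 were the other members that were common under all scalings, and Insig1, a feedback regulator, was not common with total scaling. Insig1 was also not called after MA by itself (0.12). Cyp51 was called but not common, with a change after MA of 0.17. Of 22 genes of LXR targets and lipid handling 4 were common and higher and 3 common and lower, against 5.02% and 5.41% of all genes. Apoe, the main apolipoprotein of macrophages, stood at 4283, 3955 and 3985 CPM in M, 5532, 5355 and 5271 CPM in IA, 6902, 7183 and 7535 CPM in MA and 6613, 5439 and 4741 CPM in MetSA, with 4741 CPM in the lowest treated library, MetSA replicate 3, and 4283 CPM in the highest M library (log2 fold change 0.56, SE 0.07, adjusted p = 1.53e-05). Its neighbour Apoc2 rose by 1.54, but 76.9% of the Apoc2 transcript also occurs in Gm44805. The fatty acid carrier Fabp5 rose by 0.70, and Plin2, a lipid droplet coat, by 0.35, which was not common with upper-quartile or total scaling. Lipoprotein lipase (Lpl) stood at 7976, 8393 and 8058 CPM in M, 4682, 4992 and 4686 CPM in IA, 4274, 3784 and 4128 CPM in MA and 4672, 4703 and 6355 CPM in MetSA, a fall of 0.80 on the log2 scale (SE 0.07, adjusted p = 4.77e-07). Pparg, a nuclear receptor of lipid metabolism, fell by 0.69 on average, with -0.36 after IA, -1.39 after MA and -0.31 after MetSA. Cd36, a fatty acid and lipoprotein receptor, was the least certain, at -0.32 (adjusted p = 0.0273). The call of Cd36 was lost with the replicate block and without any single M library or IA replicate 3.

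Some genes of glycolysis and of the response to low oxygen rose in all 9 treated libraries. The transcription factor subunit HIF-1 alpha drives these genes when oxygen is low. Of 32 genes 8 were common and higher and 1 lower, against 5.02% and 5.41% of all genes tested. The averaged contrast called 11 higher and 3 lower, against 14.9% and 13.5%, and the median was 0.12. Hif1a itself stood at 139, 156 and 137 CPM in M, 284, 299 and 275 CPM in IA, 308, 318 and 302 CPM in MA and 243, 261 and 286 CPM in MetSA. Treated libraries were at 243 CPM or more and M at 156 CPM or less, a 1.98-fold difference (log2 fold change 0.99, SE 0.06, adjusted p = 5.19e-10). The acids differed by a small amount for Hif1a (0.99 after IA, 1.10 after MA and 0.87 after MetSA, adjusted p = 0.0332 for a difference among them). Hexokinase 2 (Hk2), which starts glycolysis, stood at 44.5, 47.1 and 45.4 CPM in M, 78.1, 82.2 and 86.5 CPM in IA, 105, 113 and 116 CPM in MA and 90.5, 99.2 and 81.3 CPM in MetSA. MA was highest and no group overlapped M (log2 fold change 1.04, SE 0.06, adjusted p = 5.19e-10). Pfkfb3, which makes an activator of phosphofructokinase, rose by 0.83 (SE 0.05) and the lactate exporter Slc16a3 by 0.58 (SE 0.06). Vegfa rose by 0.71 with nearly equal values for the acids (0.72 after IA, 0.65 after MA and 0.75 after MetSA), P4ha1 by 0.75, Pfkl by 0.47 and Pkm by 0.19. Ldha, a standard target, was not called (0.05, adjusted p = 0.471), and Ndrg1, another gene of this list, fell by 0.76 (SE 0.08). Under all 3 scalings 6 of the 8 were common.

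Prdx5, the peroxiredoxin named in the title of the series, was a common gene. It encodes an antioxidant enzyme of mitochondria, peroxisomes and cytosol that reduces peroxides. Its level was 114, 113 and 131 CPM in M, 199, 211 and 209.6 CPM in IA, 222, 231 and 249.7 CPM in MA and 211, 199.6 and 170.1 CPM in MetSA. The highest M library had 131 CPM and the lowest treated library, MetSA replicate 3, 170 CPM, a 1.76-fold difference of the averaged level (log2 fold change 0.82, SE 0.07, adjusted p = 2.48e-08). MetSA minus MA was -0.27 (95% interval -0.44 to -0.11) and IA minus MetSA 0.09 (95% interval -0.07 to 0.26). Prdx5 lies on chromosome 19 from 6906697 to 6910106 (GRCm38), where 19.1% of its exon bases lie under Trmt112 on the opposite strand. Trmt112 was at 19.2 CPM in M with a change of -0.06 (adjusted p = 0.59). NRF2 is a transcription factor that raises antioxidant genes, and the share of its targets that were common lay near that of all genes. Of 30 genes 1 was common and higher (Mgst1, 0.67, not common with upper-quartile or total scaling) and 2 common and lower, 5 were called higher and 7 lower, and the median was -0.04. The lower members were Slc48a1, a heme transporter (-0.36), and catalase (Cat, -0.21), and the call of Cat was lost without any 1 of the M libraries or IA replicate 3. The counts moved when a library was left out, with 3 common and higher without M replicate 3 and 4 common and lower without MetSA replicate 3. Hmox1, the heme oxygenase, was not common, at 385, 351 and 336 CPM in M, 212, 231 and 206 in IA, 366, 323 and 358 in MA and 247, 245 and 314 in MetSA. Nqo1 was at 2.34, 1.72 and 2.04 CPM in M and its averaged change, -0.19, did not pass (adjusted p = 0.515), and neither did that of Nfe2l2, which encodes NRF2 (0.08, adjusted p = 0.247).

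**Figure D4:**
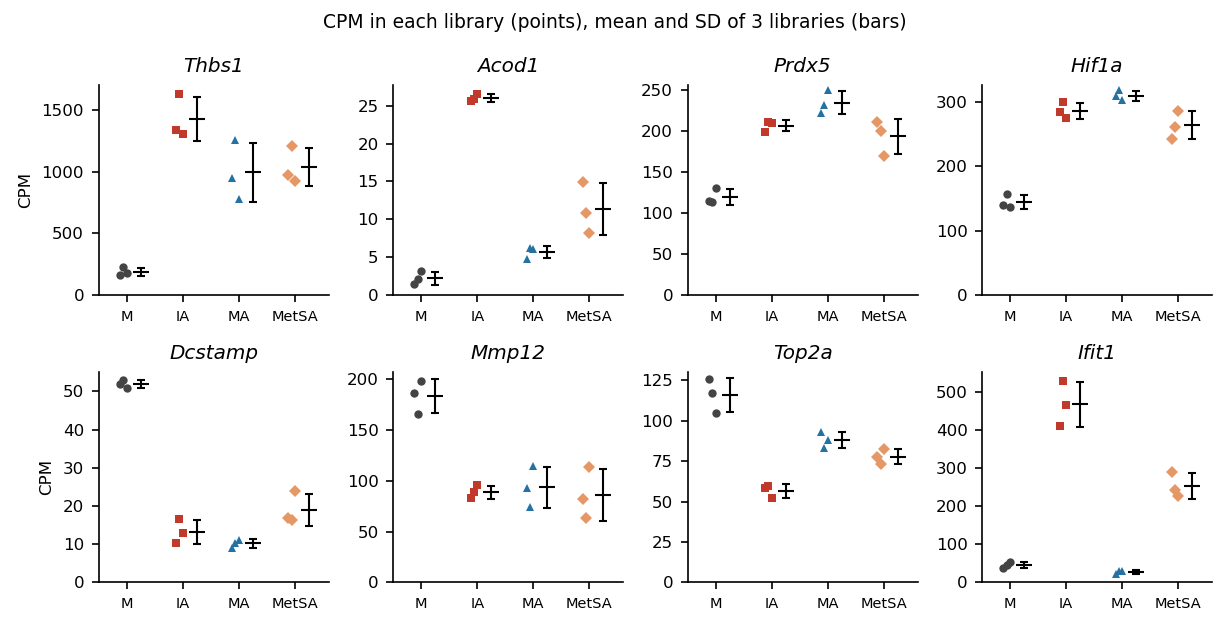
CPM of 8 genes in each of the 12 libraries (points), with the mean and SD of 3 libraries beside them, on linear axes from 0. Thbs1, Acod1, Prdx5 and Hif1a lie above M in all 9 treated libraries, Dcstamp, Mmp12 and Top2a below it, and Ifit1 lies above M after IA and MetSA and below the M mean after MA.

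Other osteoclast and cell fusion genes were lower along with Dcstamp. Osteoclasts are bone-resorbing cells that form when macrophage precursors fuse. Of 14 genes tested 7 were common and lower, Dcstamp, Ocstamp, Mmp9, Atp6v0d2, Itgb3, Ckb and Myo10, with 1 common and higher, Acp5. The same 7 were lower under all 3 scalings, a check that hardly ever removes a lower gene. In the averaged contrast 7 were called lower and 3 higher, and the median was -0.19. Among all genes tested 5.41% were common and lower, 5.02% common and higher, 13.5% called lower and 14.9% called higher. Atp6v0d2, a proton pump subunit also needed for fusion, stood at 99.5, 93.8 and 84.7 CPM in M, 34.8, 39.7 and 39.3 CPM in IA, 51.6, 42.3 and 53.4 CPM in MA and 46, 42.1 and 57.3 CPM in MetSA. The lowest M library had 84.7 CPM and the highest treated library 57.3 CPM (log2 fold change -1.05, SE 0.09, adjusted p = 3.32e-07). Itgb3, the integrin chain of the vitronectin receptor, fell by 1.09 (SE 0.14), with -1.17 after IA, -1.28 after MA and -0.83 after MetSA. Ocstamp was near the limit of detection, at 0.994 to 1.39 CPM in M, and its call was narrow (adjusted p = 0.0487). Myo10 was called without IA replicate 3 but then had overlapping libraries. It was also not common without the IA group, without the MetSA group or with DESeq2. Acp5, the tartrate-resistant acid phosphatase, stood at 2.9, 2.8 and 3.44 CPM in M, 4.54, 6.15 and 6.29 CPM in IA, 7.3, 7.12 and 7.47 CPM in MA and 4.63, 5.4 and 5.21 CPM in MetSA, so it was higher in every treated library. The count of common and higher members was 3 without M replicate 1 and 2 without IA replicate 2 or IA replicate 3. Matrix proteases split. The membrane-type protease Mmp14 stood at 6.45, 7.83 and 6.4 CPM in M, 17.1, 17.9 and 16.8 CPM in IA, 26.9, 29.9 and 32.7 CPM in MA and 20.8, 19.2 and 20.9 CPM in MetSA. It rose 3.17-fold, with MA highest (log2 fold change 1.66, SE 0.09, adjusted p = 1.24e-10). Mmp8, the neutrophil collagenase, rose by 0.88, Mmp2 by 1.10 and Adam9 by 0.36, against the falls of Mmp9 and Mmp12, among 19 genes tested. Of 11 neutrophil markers tested Mmp8 and Csf3r (0.78) were common and higher and no other was called, and the summed level of that list was 169 to 224 CPM in M and 248 to 298 CPM in the treated libraries. The part of these markers in the changes above was not tested.

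Genes that handle these acids or encode the enzymes they meet held unlike shares of common genes. Of all genes tested, 5.02% were common and higher and 5.41% common and lower. With TMM scaling the TCA cycle list did not exceed these shares. The mitochondrial mRNA list exceeded that for lower genes, and the pH list exceeded both. Of 25 TCA cycle and succinate dehydrogenase genes 1 was common, pyruvate carboxylase (Pcx, -0.81), and 1 was called higher and 6 lower. Sdha, the flavoprotein subunit of succinate dehydrogenase, stood at 232, 232 and 228 CPM in M, 250.2, 252 and 240.3 CPM in IA, 225, 232 and 238 CPM in MA and 265, 236 and 245 CPM in MetSA, so MA overlapped M while IA and MetSA lay slightly above it (log2 fold change 0.07, SE 0.05, adjusted p = 0.275). The count of common and lower genes in the TCA cycle list was 3 with upper-quartile factors and 6 with library totals. It rose to 4 when M replicate 3 was left out, to 3 for MetSA replicate 3 and to 2 for either M replicate 1 or MA replicate 2. Of 19 genes of itaconate, propionate and dicarboxylate handling, Acod1 and Slc16a3 were common and higher and Mlycd, malonyl-CoA decarboxylase, common and lower (-0.23). Mlycd was no longer called without M replicate 2, M replicate 3 or IA replicate 3, whereas 3 other members were common and lower without M replicate 3. Of 12 mitochondrially encoded mRNAs 3 were common and lower and 6 were called lower (median -0.47). The compounds' own medians were -1.05 for IA, -0.15 for MA and -0.35 for MetSA. By itself IA called 6 members lower, MA 0 and MetSA 3, so no member was called after MA. Over all genes tested the acids called 17.3%, 10.1% and 8.53% lower. mt-Cytb stood at 1353, 1301 and 1473 CPM in M, 339.9, 557 and 432 CPM in IA, 1008, 946 and 1022 CPM in MA and 588, 650.5 and 1021 CPM in MetSA. MA was nearest to M, MetSA replicate 3 stood above the other MetSA libraries (log2 fold change -0.99, SE 0.17, adjusted p = 0.00255), and without it 5 members were common. mt-Nd2 fell by 0.89 and mt-Nd4 by 0.82, while mt-Co1, the most abundant member named here, was not called (0.01). Of mt-Nd4, 60.9% also occurs in other genes, and it was no longer called without the IA group. Of 18 genes of proton-sensing receptors and pH handling, 3 were common and higher, Gpr65 (0.51), Gpr31b and Car13 (0.72), and 4 common and lower, among them Slc4a7 (-0.56), Slc4a2 (-0.29) and Atp6v0a1 (-0.65). Car13 was not called after MA by itself (0.16). Gpr65, an acid-sensing receptor, stood at 61.3, 81.6 and 79.5 CPM in M, 109, 123 and 114 CPM in IA, 88, 86.2 and 85 CPM in MA and 105, 117 and 133 CPM in MetSA, with MA just above the highest M library. Gpr31b was below 4 CPM throughout, and 71% of its transcript also occurs in other genes. Of Gpr65, 24.7% of the exon bases lie under Gm47566 on the opposite strand.

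The interferon response was called in the average and absent from the common genes. Type I interferon genes are the antiviral genes that IRF and STAT factors switch on. All 34 tested were called higher in the averaged contrast (median 1.45, against 14.9% of all genes called higher), and none was common. The compounds' own medians were 2.63 for IA, -0.44 for MA and 1.99 for MetSA. All 34 were called higher after IA and after MetSA, and 17 were called lower and none higher after MA. Ifit1, an antiviral RNA-binding protein, stood at 37.6, 45.6 and 52.7 CPM in M, 409, 527 and 465 CPM in IA, 21.7, 30.8 and 31.1 CPM in MA and 290.3, 243 and 225 CPM in MetSA. Its averaged change of 1.71 (adjusted p = 2.61e-05) therefore joined changes of 3.36 after IA, -0.70 after MA and 2.48 after MetSA. A difference among the compounds was called for each of the 34. Without M replicate 3 or MA replicate 1, 1 member was common and higher. Of 30 NF-kB inflammatory genes 11 were called higher and 2 lower, against 14.9% and 13.5% of all genes tested. By itself IA called 14 higher and 1 lower, MA 2 higher and 13 lower, and MetSA 14 higher and 0 lower. The compounds' own medians were 0.19, -0.28 and 0.28. Common and higher were 2, near the 5.02% of all genes tested. These were the interleukin-1 receptor antagonist Il1rn (0.77) and the lipopeptide receptor Tlr2 (0.50). Il1rn was not called after MA by itself (0.25). Tlr2 stood at 140.4, 149 and 142 CPM in M, 171, 172 and 177 CPM in IA, 227, 242 and 250 CPM in MA and 176, 198 and 229 CPM in MetSA, with MA highest.

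**Figure D5:**
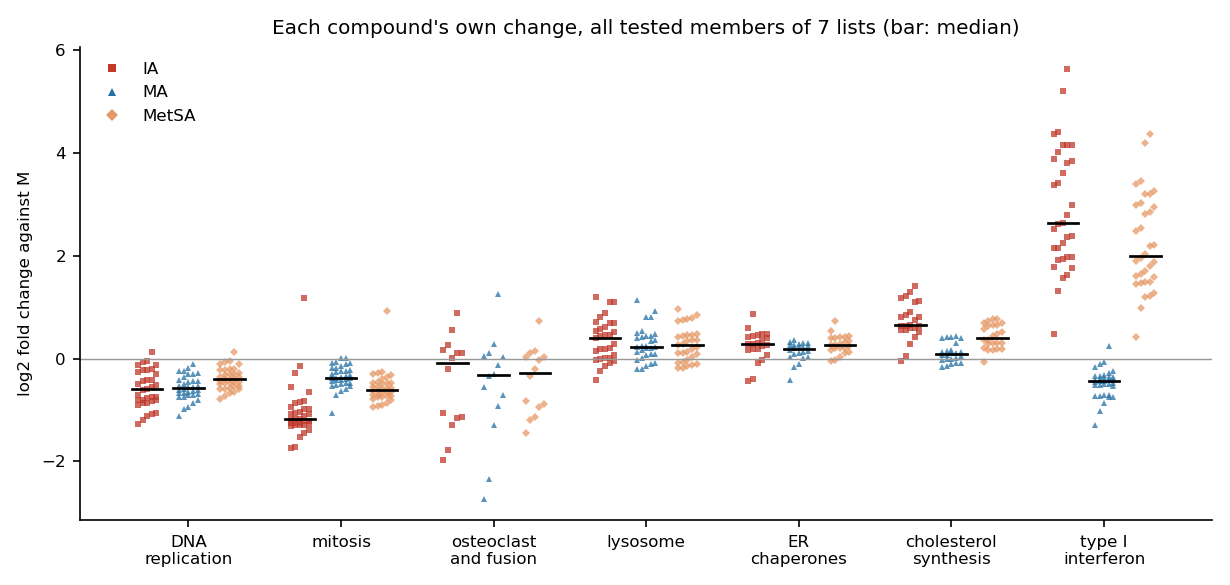
Each compound's own log2 fold change against M for every tested member of 7 gene lists, with squares for IA, triangles for MA and diamonds for MetSA and a bar at each median. Replication, mitosis, lysosome and ER chaperone members lie mostly on the same side of 0 for the 3 acids, whereas interferon members lie above 0 after IA and MetSA (medians 2.63 and 1.99) and mostly below it after MA (-0.44).

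The remaining lists held small numbers of common members. Of all genes tested, 5.02% were common and higher and 5.41% common and lower, and several of these short lists exceeded those shares. Among 22 TGF-beta genes Pmepa1 and Skil, a repressor of SMAD signalling, were common and higher and Tgfb1 lower. Skil stood at 149, 167 and 144 CPM in M, 307, 319 and 329 CPM in IA, 315, 335 and 330.1 CPM in MA and 245, 261 and 220 CPM in MetSA, a 1.91-fold rise (log2 fold change 0.93, SE 0.06, adjusted p = 1.24e-09), and Tgfb1 fell by 0.28 (SE 0.05). Tgfb1 was not called after MetSA by itself (-0.13). Of 18 genes of alternative activation and resident macrophages, Il4ra and the efferocytosis receptor Mertk (0.46, not common with total scaling) were higher and Cd163 and the mannose receptor Mrc1 lower. Mrc1 stood at 905, 819 and 755 CPM in M, 623, 625 and 548 CPM in IA, 236, 196 and 189.6 CPM in MA and 655, 634 and 717 CPM in MetSA. The fall of Mrc1 was deepest after MA, with log2 fold changes of -0.46 after IA and -0.31 after MetSA. Of 17 genes in a list of chemokine and some other receptors, Ccrl2 (1.31), P2ry12 (1.12, not a chemokine receptor) and Xcr1 were higher. Without M replicate 3, 5 members of that list were common and higher. Sgk1, a kinase induced by salt and steroid signals, was the single common member of 13 NFAT5 genes, at 57.6, 66.6 and 66.7 CPM in M, 142, 161 and 151 CPM in IA, 230.5, 234 and 245 CPM in MA and 109, 118 and 119 CPM in MetSA (log2 fold change 1.33, SE 0.06, adjusted p = 1.74e-11). Leaving out M replicate 2 gave 2 common and higher and 1 common and lower NFAT5 gene, and leaving out M replicate 3 gave 1 lower. Of 20 immediate early genes Nr4a2 was common and higher (0.84, near 1 to 3 CPM and not with total scaling) and Egr2 lower. The lower members numbered 3 with upper-quartile or total scaling and 2 when M replicate 1, M replicate 2 or MetSA replicate 3 was left out. Of 21 p53 targets Trp53inp1 (0.45) and Sesn2 were higher. Of 9 MHC class II genes H2-DMb1 was higher (0.46), though not with total scaling. Markers of other cell types were few. Of 10 dendritic cell markers tested Xcr1 was common, with a summed level of 3.56 to 7.28 CPM in M and at most 16.7 CPM in treated libraries. No marker of T, B and NK cells, stromal cells, mast cells and basophils, erythroid cells or monocytes and progenitors was common, and 3 of the 12 listed T, B and NK cell markers were at 0 in every library. The summed level of the 8 monocyte and progenitor markers was 214 to 268 CPM in M and 207 to 640 CPM in the treated libraries, and its part in these results was not tested.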

How the data were processed

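The authors deposited a table of raw read counts per gene for the 12 libraries, made with STAR and featureCounts on mm10 per the submitters' processing notes. No source used here gives tool versions, the annotation or the strand setting. Of counts from 1 to 9, 66.07% were even, against 50.86% of those of at least 1000, so mates may have been counted separately, and halved counts were tried. Genes passing edgeR's filterByExpr (14113 of 32285) were TMM-scaled and fitted with edgeR 4.0.16 (quasi-likelihood, robust, 4 groups) in R 4.3.3, with DESeq2 1.42.0 as an alternative. The contrast was the mean of IA, MA and MetSA minus M, and a 2-df test compared the compounds. The fitting script was first tested on simulated data. Named genes were the 12 largest rises and falls at 10 CPM or more, the 5 most even and 3 least even at 2-fold or more each way, up to 3 per list and direction by p, the genes nearest the limit of the position rule and 15 key genes; list members beyond these were named after their values were seen. The members, lists and rules were chosen with earlier results of these data known. Coordinates are from GENCODE M21 (GRCm38) and promoter sequences from RefSeq (GRCm38.p6). Stretches of 96 bases shared with other genes were counted. Alternatives were other scalings, filters, tools, groupings and each library left out. The titles number the libraries WT1 to WT3 in every group and state no pairing. Some members of the lists are counted but not reported here by name.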

Additional observations from a re-analysis of the deposited data

How the results depend on the processing

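With library totals alone, 1311 genes were called higher and 3967 lower, 377 lay above M and 1525 below, and 365 and 1470 were common. With upper-quartile factors, 513 of the 709 common and higher genes and 763 of the 764 lower genes were kept. Testing the 9 treated libraries as 1 group called 491 higher and 526 lower, with 459 and 469 common. Without the IA group 980 were called lower, and 448 common genes differed between the remaining compounds. Without the MA group 2105 lay above and 1689 below M, 1908 and 1493 were common, 657 genes differed between IA and MetSA, 437 of them common, and Ccnd1 turned to 0.17. Without the MetSA group 1266 lay above M and 1147 were common and higher. Requiring 2-fold changes left 334 called higher and 164 lower, 114 above and 88 below, 110 and 80 common, and 383 genes differing, 110 of them common. Leaving out a library or group asks fewer libraries to lie apart, so counts without overlap tend to rise. Leaving out each library gave 775 to 1124 genes above and 711 to 1277 below, with 1265 below without M replicate 2 and 1277 without M replicate 3. Common and higher genes then ran from 714 to 907 and common and lower genes from 635 (without IA replicate 3) to 967. DESeq2 gave 758 and 750 common genes. The joint count over 3 scalings (365 and 763) was chosen after seeing the data. With the replicate number as a block, 718 and 769 genes were common, 709 and 761 of them the same genes, and 5559 genes differed among the compounds. Same-numbered libraries correlated at 0.012 to 0.169 in deviations from the group means, and 2 of 18 pairs exceeded 0.1. Each library correlated best with the same number in 35 of 36 comparisons, a hint from the data that the labels do not explain. Whether the numbers mark a shared source was not tested. The main fit left them out, and the fit with the block called more genes, 2338 higher and 2145 lower. Depth limits genes under 1 CPM, such as Xcr1 in M.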
